A study of Mus musculus with 4 samples.

Results

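10 genes of the NF-κB system, the inhibitor genes Nfkbia, Nfkbie, Nfkbiz, Nfkbid, Bcl3, and Tnfaip3 and the subunit genes Rel, Relb, Nfkb1, and Nfkb2, were followed in single-cell RNA-sequencing (scRNA-seq) libraries of murine bone marrow (BM) and spleen. They were chosen by name out of 32285 genes in the count matrices, and each was read in every cell class and library. In scRNA-seq of this kind each droplet carries a barcode and each captured messenger RNA molecule a unique molecular identifier (UMI), so that UMIs count molecules. The 4 groups, with 1 library each, were BM of control mice (CBM) and of tumor-bearing mice (TBM), and spleen of control mice (CS) and of tumor-bearing mice (TS). All libraries came from C57BL/6J mice 8 to 16 weeks of age, female by the study's methods, and TBM and TS came from mice bearing PyMT-B6 tumors, grown from a cell line of MMTV-PyMT mammary tumors, whose transgene runs from the MMTV promoter. CBM and CS came from mice without tumor. The number of mice behind each library was not given in the sources used here. In every group the tissue was digested with collagenase, lineage-positive cells were depleted, and Lin- CD45+ c-Kit+ and CD45- gates were sorted and pooled in equal parts, and a share of cells therefore describes the pool and not the organ.

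NF-κB is a family of dimeric transcription factors that answer inflammatory cytokines, microbial products, and antigen receptors. In resting cells the dimers are held in the cytoplasm by IκB proteins; signaling degrades the IκB, the dimer enters the nucleus, and among the genes it switches on are those of its own inhibitors, which close a feedback loop. Nfkbia encodes IκBα and Nfkbie IκBε, the cytoplasmic inhibitors, while Nfkbiz (IκBζ), Nfkbid (IκBNS), and Bcl3 encode nuclear IκB proteins that modulate transcription at selected promoters. Tnfaip3 encodes A20, a ubiquitin-editing enzyme that dampens signaling upstream of the IκB kinase. Rel encodes c-Rel and Relb RelB, and Nfkb1 and Nfkb2 encode the precursors p105 and p100, which are processed to p50 and p52. In hematopoietic stem and progenitor cells (HSPCs) the pathway is known for emergency myelopoiesis under inflammatory cytokines.

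The start sites of these genes are shown first because the feedback loop runs through them. RefSeq promoter windows on GRCm38.p6, from 250 bases before to 50 bases after each start, were at hand for 7 of the 10 genes, and Nfkbiz, Relb, and Nfkb1 were not matched. The κB consensus, a motif of 10 bases searched on both strands with overlapping matches kept, was found in at least 1 window of 7 of the 7 genes and in 9 of their 12 windows, beside 4.51% of 32851 windows and 5.14% of 27025 genes in the whole table. The 150 bases before the start follow for a pair of genes that rose in spleen, Nfkbia at chr12:55492648-55492797 and Tnfaip3 at chr10:19015411-19015560, both on the minus strand, and for a pair that rose less or in fewer classes, Nfkbie at chr17:45555550-45555699 on the plus strand and Rel at chr11:23770970-23771119 on the minus strand. They are written 5′ to 3′ along the gene, with capitals on the matches to the κB consensus.
Nfkbia: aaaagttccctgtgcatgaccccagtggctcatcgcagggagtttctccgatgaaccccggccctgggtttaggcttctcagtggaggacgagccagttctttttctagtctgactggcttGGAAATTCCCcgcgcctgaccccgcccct
Tnfaip3: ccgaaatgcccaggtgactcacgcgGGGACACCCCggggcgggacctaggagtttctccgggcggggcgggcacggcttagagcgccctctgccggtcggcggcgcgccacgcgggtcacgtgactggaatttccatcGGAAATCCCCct
Nfkbie: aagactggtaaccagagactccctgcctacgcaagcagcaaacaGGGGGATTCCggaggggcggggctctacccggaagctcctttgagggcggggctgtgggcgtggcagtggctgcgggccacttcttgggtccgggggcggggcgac
Rel: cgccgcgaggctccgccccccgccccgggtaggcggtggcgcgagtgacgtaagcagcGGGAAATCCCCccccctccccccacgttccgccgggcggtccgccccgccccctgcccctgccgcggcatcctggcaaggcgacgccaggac
Counted from the start, the match of Nfkbia began at position -29, those of Tnfaip3 at -125 and -12, that of Nfkbie at -106, and the overlapping matches of Rel at -92 and -91. In Bcl3 the match lay after the start, at position 2. A match describes letters in a window and says nothing of which dimer, if any, bound there in these cells, and genes that rose and genes that did not both carried one.

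Levels are given in CPM, the UMIs of a gene for every 1000000 UMIs of all genes, summed over the cells of a class in a library, with exact Poisson 95% intervals. Comparisons between libraries are log2 ratios of these levels with exact conditional 95% intervals, in which a value of 1 is a doubling. With 1 library per group there was no replicate, so no test between groups was possible, the intervals cover counting error only, and differences between mice, sorts, and droplet runs cannot be told apart from differences between groups. A gene was compared where its mean level over the 2 libraries was at least 5 CPM and both held at least 50 cells of the class, and at least 2-fold was taken as higher or lower. The 4 comparisons share libraries, so that a low value in CBM, for example, enters both CS over CBM and TBM over CBM. Counts were read at the 3′ end, so levels are compared between libraries and classes, not between genes.

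After filtering, 16261 cells remained, 3497 in CBM and 4340 in TBM, against 3236 in CS and 5188 in TS, and the median UMIs per cell were 13738, 14386, 26322.5, and 26808 in that order. Pairs of libraries shared 2 to 9 cell barcodes, where random draws would give 1.67 to 3.31. Clusters were named from marker genes, and the 10 genes took no part in the clustering. HSPC-like cells, with UMIs of all 8 HSPC markers in every library, numbered 816 in CBM and 936 in TBM, against 154 in CS and 688 in TS. 38 clusters held no macrophage-like or stromal cluster, and endothelial-like cells numbered 25 in all, so the CD45- niche cells that the gates aimed at were not assessed. Free RNA, taken from barcodes with at most 100 UMIs, itself held more Nfkbia and Tnfaip3 in spleen than in BM: its Nfkbia level was 99.3 CPM in CBM and 114 in TBM, against 232.7 in CS and 270.3 in TS, and its Tnfaip3 level was 18.9, 10.2, 36.1, and 56.6. If every hemoglobin UMI of HSPC-like cells came from free RNA, at most 2.56% of their UMIs in CBM and 3.33% in TBM could have come from it, and at most 3.58% in CS and 8.93% in TS.

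In HSPC-like cells the inhibitor genes other than Bcl3 were higher in spleen than in BM in mice with and without tumor, while the subunit genes Nfkb1 and Rel moved little. Of the 10 genes, 6 were at least 2-fold higher in CS than in CBM, namely Nfkbia, Nfkbiz, Nfkbid, Tnfaip3, Relb, and Nfkb2, against 1.19% of 9928 genes compared. In TS over TBM 3 of the 10, Nfkbia, Nfkbiz, and Tnfaip3, were at least 2-fold higher in the class as a whole, against 0.736% of 9783 genes. More members passed 2-fold within its larger cluster, as given below. The median log2 ratio of the 10 genes was 1.04 in CS over CBM and 0.90 in TS over TBM, beside 0.02 and -0.01 over all genes compared. None of the 10 was at least 2-fold lower in either, where 0.584% and 0.828% of all genes were.

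Nfkbia, the IκBα gene, stood at 103.5 CPM in CBM (95% interval 98.1 to 109) and 124.6 in TBM (119 to 130.3), against 310.3 in CS (292 to 329.5) and 471.7 in TS (458.7 to 485). The spleen libraries were both above both BM libraries, with no overlap of the intervals. The log2 ratio was 1.58 (1.47 to 1.70) in CS over CBM and 1.92 (1.84 to 2.00) in TS over TBM, and TS was above CS by 0.60 (0.51 to 0.70), short of 2-fold. Free RNA could account for at most 5.12% of the TS level by the hemoglobin bound. In CBM and TBM the interval of Nfkbia overlapped that of free RNA, and in CS and TS the cells were above it.

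Nfkbiz, the IκBζ gene, showed the same order of libraries, at 56.9 CPM in CBM and 61.7 in TBM, against 127 in CS and 185.6 in TS. Its log2 ratio was 1.16 (0.98 to 1.33) in CS over CBM, 1.59 (1.48 to 1.70) in TS over TBM, and 0.55 (0.40 to 0.70) in TS over CS. Free RNA held only 19.3 to 31.4 CPM of Nfkbiz, below the cells in each library. Nfkbid, the IκBNS gene, was at 65.7 in CBM and 66.5 in TBM, against 147 in CS and 117.8 in TS, so that CS and not TS was the highest. It was at least 2-fold higher in CS over CBM, with a log2 ratio of 1.16 (1.00 to 1.32), and below 2-fold in TS over TBM, with 0.83 (0.70 to 0.95).

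Tnfaip3, the A20 gene, was at 14.8 CPM in CBM and 15.1 in TBM, against 38.9 in CS and 37.2 in TS. Both spleen libraries lay above both BM libraries and did not differ from each other beyond counting error, with a log2 ratio of TS over CS of -0.07 (-0.35 to 0.23). The log2 ratio was 1.40 (1.07 to 1.72) in CS over CBM and 1.30 (1.06 to 1.54) in TS over TBM. Tnfaip3 was the member whose level in TS was below that of free RNA, at 56.6, and in CBM, TBM, and CS the intervals overlapped. By the hemoglobin bound free RNA could give at most 13.6% of its level in TS. Nfkbie, the IκBε gene, was at 11.7 in CBM and 8.16 in TBM, against 22.9 in CS and 15.6 in TS, with log2 ratios of 0.98 (0.57 to 1.38) in CS over CBM and 0.94 (0.59 to 1.28) in TS over TBM, just under 2-fold in each for the class as a whole. Within the larger HSPC-like cluster, described below, it was 1.07 (0.56 to 1.57) in TS over TBM.

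Among the subunit genes the precursor of p52 and RelB, the partners of the noncanonical branch of the pathway, were higher in spleen, and c-Rel and the precursor of p50 stayed within 2-fold. Nfkb2 was at 19.3 CPM in CBM and 19.8 in TBM, against 38.6 in CS and 38 in TS, so that the spleen libraries were alike and the BM libraries were alike. Its log2 ratio of 1.00 (0.69 to 1.31) in CS over CBM lay at the limit of 2-fold and that of 0.94 (0.72 to 1.16) in TS over TBM just under it. Relb was at 8.93 in CBM and 6.59 in TBM, against 18.9 in CS and 11.9 in TS, with log2 ratios of 1.08 (0.62 to 1.53) in CS over CBM and 0.86 (0.47 to 1.25) in TS over TBM. Rel was at 52.6 in CBM and 55.8 in TBM, against 75 in CS and 69.6 in TS, higher in spleen beyond counting error and below 2-fold, with log2 ratios of 0.51 (0.30 to 0.72) and 0.32 (0.17 to 0.46). Nfkb1 was flat at 126.4 in CBM and 133.5 in TBM, against 123.8 in CS and 126.2 in TS, and the intervals of its ratios held 0 in all 4 comparisons. The gene Gm43430 overlaps Nfkb1 on the same strand, and Nfkb2 and Bcl3 overlap genes on the opposite strand, so their counts are less certain where reads could be split.

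**Figure D1:**
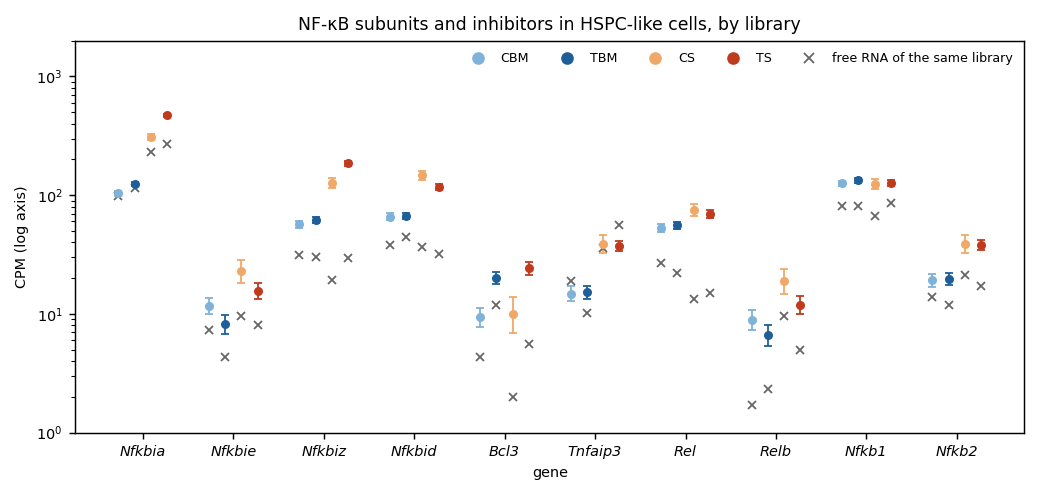
Levels of the 10 genes in HSPC-like cells, in CPM on a log axis, with points for the 4 libraries, bars for exact Poisson 95% intervals, and crosses for free RNA of the same library. Nfkbia rises from 103.5 in CBM to 471.7 in TS, Nfkb1 stays between 123.8 and 133.5, Bcl3 is high in TBM and TS, and Tnfaip3 lies below the free RNA cross in TS.

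Bcl3, which encodes a nuclear IκB protein that partners p50 and p52 homodimers, passed 2-fold with tumor and not between the organs. In HSPC-like cells it was at 9.38 CPM in CBM (7.80 to 11.2) and 20.2 in TBM (18 to 22.5), against 9.88 in CS (6.84 to 13.8) and 24.3 in TS (21.4 to 27.5). Both tumor-bearing libraries were above both control libraries, and the intervals did not overlap. It was the 1 member of the 10 at least 2-fold higher in TBM over CBM, against 0.728% of 9893 genes, and the 1 member at least 2-fold higher in TS over CS, against 0.736% of 9788 genes. Its log2 ratio was 1.10 (0.80 to 1.42) in TBM over CBM and 1.30 (0.78 to 1.86) in TS over CS, and 0.07 (-0.52 to 0.63) in CS over CBM. In TS over TBM it was higher by 0.27 (0.03 to 0.51), beyond counting error and below 2-fold. Free RNA also held more Bcl3 with tumor, at 4.30 CPM in CBM and 11.9 in TBM, and at 1.97 in CS and 5.55 in TS. By the hemoglobin bound it could give at most 1.97% of the cells' level in TBM and 2.04% in TS.

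Across the same comparisons with tumor the other members showed smaller differences in both directions. In TS over CS, Nfkbia and Nfkbiz were higher by less than 2-fold, and Nfkbid, Nfkbie, and Relb were lower, with log2 ratios of -0.32 (-0.47 to -0.17), -0.56 (-0.95 to -0.15), and -0.66 (-1.11 to -0.21). In TBM over CBM, Nfkbia was higher by 0.27 (0.17 to 0.37), while Nfkbie and Relb were lower, with -0.52 (-0.87 to -0.17) and -0.44 (-0.84 to -0.04). The median of the 10 genes was -0.05 in TS over CS and 0.06 in TBM over CBM, beside -0.04 and -0.01 over all genes compared. Bcl3 was thus the member past 2-fold in either tumor comparison, and in TS over CS the smaller differences ran in both directions.

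The HSPC-like class consisted of 2 clusters, of 1609 and 985 cells over all libraries. Hlf, Dntt, and Flt3 were among the leading genes of both, Mecom and Ly6a among those of the larger only, and Cd34 among those of the smaller only. Cpa3, a mast or basophil marker, was also among the leading genes of the smaller only. Nfkbia and Bcl3 passed 2-fold in the same comparisons in each. Nfkbia had a log2 ratio of TS over TBM of 2.06 (1.95 to 2.17) in the larger and 1.92 (1.81 to 2.03) in the smaller. In the larger, Nfkbiz, Tnfaip3, Relb, Nfkb2, Nfkbie, and Nfkbid also passed 2-fold there, at 1.93, 1.14, 1.17, 1.17, 1.07, and 1.03. All of these but Nfkbiz had intervals that reached below 1, and Bcl3, Rel, and Nfkb1 did not pass 2-fold. The larger held 606 of the 936 TBM but 324 of the 688 TS cells, so the class values of TS over TBM set unlike mixtures side by side. Bcl3 had a log2 ratio of TBM over CBM of 1.17 (0.78 to 1.57) in the larger and 1.14 (0.63 to 1.67) in the smaller. Tnfaip3 differed more between them in CS over CBM, at 0.95 (0.50 to 1.39) and 2.25 (1.70 to 2.81), with 97 and 57 CS cells behind these values. Of the members lower in TS over CS, Nfkbid had log2 ratios of -0.20 (-0.40 to 0.01) and -0.14 (-0.37 to 0.10) within these clusters, Relb -0.46 (-1.06 to 0.15) and -0.53 (-1.22 to 0.21), and Nfkbie -0.09 (-0.70 to 0.54) and -0.83 (-1.36 to -0.28), so that only Nfkbie in the smaller cluster was lower beyond counting error. Markers of other cells moved with the libraries in places: the summed level of 11 mast or basophil markers in HSPC-like cells was 56.4 CPM in CBM and 174.3 in TBM, against 152.8 in CS and 269.7 in TS, with Tpsb2 and Tpsab1 at 0 in each. The summed level of 9 macrophage markers ran from 5.03 in TBM to 63.9 in CS, that of 9 dendritic markers from 53.2 in TBM to 147.3 in CS, and their part in the differences was not tested.

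Cells with UMIs of several members at once were more frequent in spleen, a share that higher levels of the members raise by themselves. Whether the members rose together in the same cells was not tested. After each cell was thinned to 2000 UMIs, 20.8% of HSPC-like cells in CBM (exact binomial 95% interval 18.1 to 23.8) and 23.1% in TBM (20.4 to 25.9) had UMIs of at least 2 of the 10 genes, against 50.6% in CS (42.5 to 58.8) and 55.5% in TS (51.7 to 59.2). Without thinning the shares were 91.3%, 95.7%, 99.4%, and 97.2%, at median depths of 14016.5, 13705, 19790.5, and 13635 UMIs. Hemoglobin-rich erythroid-like cells, which hold few of these messages, gave 1.82%, 1.31%, 6.15%, and 3.17% at the same thinning, with medians of 12868.5, 12231, 19044, and 13508 UMIs before it. Nfkbia alone was detected after thinning in 19.6% of cells in CBM and 19.8% in TBM, against 39.6% in CS and 56.2% in TS.

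**Figure D2:**
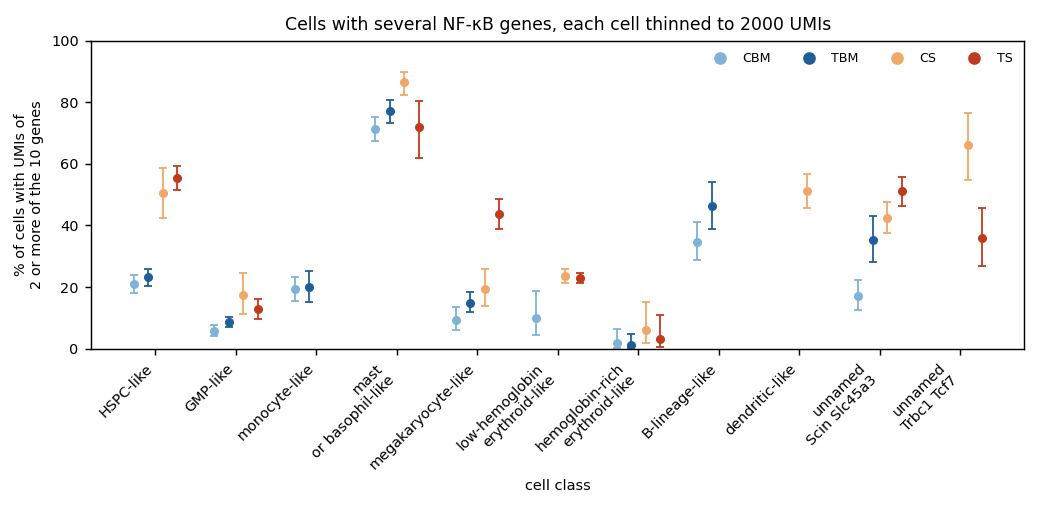
Percent of cells with UMIs of 2 or more of the 10 genes after thinning each cell to 2000 UMIs, by cell class and library, with exact binomial 95% intervals. In HSPC-like cells the BM libraries lie at 20.8% and 23.1% and the spleen libraries at 50.6% and 55.5%, and mast or basophil-like cells lie above 70% in every library.

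Outside HSPC-like cells the difference between spleen and BM was seen in granulocyte-monocyte precursor (GMP)-like, megakaryocyte-like, and some erythroid-like cells, and mast or basophil-like cells passed 2-fold in 1 of their clusters and not as a class. In CS over CBM, 13 of 42 pairs of a member and a named class outside HSPC-like cells were at least 2-fold higher, where 0.794% to 2.10% of all genes were, by class. In TS over TBM, 10 of 32 such pairs were, where 0.545% to 7.26% of all genes were. With tumor, 4 of 42 pairs were at least 2-fold higher in TS over CS, beside 0.151% to 10.2% of all genes, and 4 of 48 in TBM over CBM, beside 0.897% to 5.68%.

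In GMP-like cells, marked by Mpo, Elane, and Prtn3, 5 of 9 members compared were at least 2-fold higher in CS over CBM, against 0.965% of 9011 genes, and 2 of 8 in TS over TBM, against 0.545% of 8812 genes. Nfkbia was at 55.1 CPM in CBM and 59.5 in TBM, against 120.9 in CS and 132.1 in TS, lower than in HSPC-like cells in every library. Its log2 ratio was 1.13 (1.00 to 1.27) in CS over CBM and 1.15 (1.06 to 1.24) in TS over TBM. Between the spleens, TS over CS, 0 of 9 members were at least 2-fold higher, against 1.05% of 8966 genes, and the median log2 ratio of the members was -0.30. The intervals of 5 members lay below 0 there, those of Nfkbid, Nfkbie, Tnfaip3, Rel, and Nfkb2, and those of Nfkbia and Bcl3 above it, at 0.13 (0.01 to 0.25) and 0.79 (0.26 to 1.36), and the ratio of Nfkbia ran from -0.17 to 0.38 over the alternatives. The ratio of Nfkbia fell below 2-fold at clustering resolution 0.6 in CS over CBM, at 0.71, and as a mean over cells in TS over TBM, at 0.90. Tnfaip3 rose most in ratio, from 4.04 in CBM to 16.2 in CS and from 2.18 in TBM to 11.8 in TS, with log2 ratios of 2.01 (1.57 to 2.45) and 2.44 (2.06 to 2.82). The size of the former varied with the amount removed as free RNA, at 2.56 with 10% and 5.15 with 20% of UMIs removed. By the hemoglobin bound at most 1.63% of the UMIs of GMP-like cells in CBM and 0.959% in CS could come from free RNA. The clusters behind GMP-like cells differed between libraries: a cluster led by Ly6c2, F13a1, and Irf8 held 439 of the 692 CBM and 87 of the 139 CS cells, a cluster led by Ms4a3, Prtn3, and Elane held 432 of the 1386 TBM and 328 of the 433 TS cells, and a cluster led by S100a8, Elane, and S100a9 held 508 of the TBM and 100 of the TS cells. Ly6c2 and F13a1 are markers of the monocyte list, and S100a8 and S100a9 of the neutrophil precursor list. Elane, Prtn3, and Ctsg of the GMP list were among the leading genes of all 3 of these clusters. Within the first of them, Nfkbia and Tnfaip3 were higher in CS over CBM by 1.07 (0.90 to 1.24) and 1.95 (1.41 to 2.50). The other two clusters differed in TS over TBM. Nfkbia and Tnfaip3 were higher by 1.39 (1.28 to 1.50) and 2.89 (2.35 to 3.47) in the Ms4a3 cluster, while in the S100a8 cluster Nfkbia was higher by 0.45 (0.25 to 0.65), below 2-fold, Nfkbiz had a ratio of 0.08 (-0.32 to 0.46), and Tnfaip3 was too low to be compared.

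In megakaryocyte-like cells, marked by Pf4, Itga2b, and Vwf, Nfkbia had the largest log2 ratio of TS over TBM among the named classes. Over the alternatives this ratio ran from 1.79 to 2.68, and that of HSPC-like cells from 1.87 to 2.04, so the order did not hold under every alternative. The level of Nfkbia in megakaryocyte-like cells was 76.5 CPM in CBM and 99 in TBM, against 218.8 in CS and 525.2 in TS, and no intervals overlapped. The log2 ratio was 1.52 (1.36 to 1.68) in CS over CBM, 2.41 (2.31 to 2.51) in TS over TBM, and 1.26 (1.17 to 1.36) in TS over CS. 4 of 9 members were at least 2-fold higher in CS over CBM (Nfkbia, Nfkbiz, Nfkbid, and Relb), against 0.794% of 9449 genes, and 4 of 9 in TS over TBM (Nfkbia, Nfkbiz, Tnfaip3, and Relb), against 1.85% of 9477 genes. With tumor in the spleen, TS over CS, 3 of 9, Nfkbia, Nfkbiz, and Tnfaip3, were at least 2-fold higher, against 1.87% of 9399 genes. Tnfaip3 was at 10.9 in CBM and 10.8 in TBM, against 20 in CS and 47.1 in TS, with a log2 ratio of TS over CS of 1.24 (0.92 to 1.57). The 2 largest clusters of the class, both led by Pf4 and Cavin2, held 69 and 82 CS cells and 220 and 185 TS cells. Within them the ratio of TS over CS was 1.16 (1.03 to 1.29) and 1.05 (0.87 to 1.23) for Nfkbia, 0.94 (0.54 to 1.36) and 0.95 (0.54 to 1.38) for Nfkbiz, and 0.97 (0.58 to 1.37) and 0.27 (-0.46 to 1.00) for Tnfaip3, so that Nfkbia passed 2-fold in each and Nfkbiz and Tnfaip3 in neither. With classes from the markers of each cell the ratio was 0.69 for Nfkbia and 0.19 for Tnfaip3, and at clustering resolution 0.6 it was 0.91 and 0.65, below 2-fold for both. The summed level of 8 megakaryocyte markers in these cells fell along the same order, at 5924 CPM in CBM and 3879 in TBM, against 2997 in CS and 1075 in TS, and its part in the differences was not tested. In TS over TBM the ratio of Nfkbia was 2.53 (2.36 to 2.69) in the former of these clusters and 1.89 (1.73 to 2.06) in the latter, and that of Tnfaip3 was 2.29 (1.82 to 2.79) and 0.69 (0.07 to 1.30), below 2-fold in the latter.

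Mast or basophil-like cells, marked by Fcer1a, Ms4a2, and Cpa3, had the highest Nfkbia and Tnfaip3 of the classes in every library, and the median log2 ratio of the members between organs was the lowest of the named classes, at 0.35 in CS over CBM and -0.12 in TS over TBM. Nfkbia was at 1104 CPM in CBM and 1136 in TBM, against 2079 in CS and 1237 in TS, and Nfkbiz at 297, 417.7, 414.1, and 370.3. 0 of 9 members were at least 2-fold higher in CS over CBM, against 2.10% of 9470 genes, and 0 of 9 in TS over TBM, against 3.99% of 9396 genes. The intervals of 7 of the 9 lay above 0 in CS over CBM. The nearest was Nfkbia in CS over CBM, with a log2 ratio of 0.91 (0.85 to 0.97), and in TS over TBM it was 0.12 (0.02 to 0.22). The class value in CS over CBM was carried by its largest cluster, led by Ccl6, where the ratio of Nfkbia was 0.89 (0.82 to 0.96). In the cluster led by Gzmb and Cpa3, with 67 CBM and 61 CS cells, Nfkbia, Nfkbiz, Nfkbid, and Rel were higher in CS by 1.08 (0.91 to 1.26), 1.13 (0.78 to 1.48), 1.49 (0.80 to 2.23), and 1.21 (0.64 to 1.79), each at least 2-fold. In TS over CS, Nfkbie and Relb were at least 2-fold lower, against 9.16% of 9516 genes lower, and 0 of 9 were higher, against 6.87%. The intervals of 3 of the 9 members lay below 0 there. That of Relb, which went from 13.11 to 5.004 CPM on few UMIs, held 0. In TBM over CBM 0 of 9 were at least 2-fold higher, against 3.02% of 9451 genes. A cluster led by Ccl6 and Cd200r3 held 413 of the 525 CBM and 287 of the 356 CS cells but 86 of the 503 TBM and 20 of the 98 TS cells, so that the tumor comparisons in this class set unlike mixtures side by side. Within that cluster Tnfaip3 was at least 2-fold lower in TBM over CBM, at -1.17 (-1.60 to -0.76). Nfkbia and Rel were lower by less, at -0.36 (-0.48 to -0.24) and -0.72 (-1.405 to -0.095), and the intervals of the other members compared held 0. The mixture also differed in TS over TBM, since the cluster led by Gzmb and Cpa3, where Nfkbia was lower than in the Ccl6 cluster in CBM and CS, held 44 of the TBM and 32 of the TS cells.

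Erythroid-like cells were separated by hemoglobin. In low-hemoglobin erythroid-like cells, marked by Car1, Ermap, and Klf1, Nfkbia was at 161 CPM in CBM, 304.5 in CS, and 344.6 in TS, and TBM held too few cells to compare. 2 of 9 members, Nfkbiz and Nfkbid, were at least 2-fold higher in CS over CBM, against 0.876% of 8908 genes, from 8.47 to 19.7 and from 9.74 to 22.9 CPM. Free RNA held 31.37 CPM of Nfkbiz in CBM and 19.34 in CS, and 38.25 and 36.91 of Nfkbid. The cells were thus below free RNA, except for Nfkbiz in CS, which was close to it. The part of free RNA in these ratios was not tested, and over the alternatives they ran from 1.14 to 2.90 and from 1.18 to 2.87. Between the spleens, TS over CS, 0 of 8 were higher, against 0.151% of 8613 genes, and the median log2 ratio of the members was -0.30. The intervals of Nfkbiz, Nfkbid, Rel, Relb, and Nfkb2 lay below 0, with Rel at -0.78 (-0.94 to -0.63) and Nfkbid at -0.56 (-0.66 to -0.46), and those of Nfkbia, Tnfaip3, and Nfkb1 above it, with Tnfaip3 at 0.44 (0.39 to 0.50). CS and TS cells of this class fell in different clusters: 3 clusters held 380, 361, and 508 CS cells and 9, 1, and 0 TS cells.

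In hemoglobin-rich erythroid-like cells, with 63 to 153 cells per library, Nfkbia was at 68.8 in CBM and 54.5 in TBM, against 120.7 in CS and 140.4 in TS. Free RNA of the same libraries was above these cells in each, at 99.3 and 114 against 232.7 and 270.3, in the same order of organs. For Tnfaip3 only the TS cells lay below free RNA beyond counting error, with 24.2 beside 56.6 CPM. Its level was also lower than free RNA elsewhere, but the intervals overlapped. The hemoglobin bound cannot be applied to cells that make hemoglobin, so the part of free RNA here was not tested. 2 of 6 members were at least 2-fold higher in CS over CBM, against 2.00% of 7511 genes, and 4 of 6 in TS over TBM, against 7.26% of 7681 genes. Among these Relb and Nfkb2 in TS over TBM had intervals that held 0, from -0.18 to 2.51 and from -0.07 to 3.19. The median of all genes compared in TS over TBM was itself 0.24 in this class. In TS over CS Nfkbiz was higher and Nfkbid lower among 7 members, against 10.2% and 2.86% of 7578 genes, and in TBM over CBM Nfkb2 was lower among 5, against 2.80% of 7670 genes, where 0 were higher, against 1.73%. The intervals of these 3 ratios with tumor held 0.

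Bcl3 was the member that passed 2-fold with tumor in most BM classes in which it could be compared. Nfkbiz was higher too in TBM over CBM, with log2 ratios of 0.12 to 1.01 in 6 named classes, and passed 2-fold in 1 of them. Bcl3 was at least 2-fold higher there in 4 of 5 classes, and in B-lineage-like cells its log2 ratio was 0.74 (-0.71 to 2.15). Megakaryocyte-like cells met the minimum mean only through TBM, and classes low in both libraries, such as mast or basophil-like cells at 1.52 and 3.19 CPM, were not compared. Free RNA of TBM held 11.9 CPM of Bcl3, near the TBM levels of GMP-like and megakaryocyte-like cells. By the hemoglobin bound it could give at most 1.87% and 1.82% of those levels. In GMP-like cells it went from 5.22 to 10.5 CPM, a log2 ratio of 1.02 (0.70 to 1.34), and was the 1 of 7 members higher, against 0.897% of 8917 genes, but the ratio was between 0.91 and 0.96, below 2-fold, under 4 of the alternatives. This class set unlike mixtures side by side, since the cluster led by Ly6c2, F13a1, and Irf8 held 439 of the 692 CBM but 23 of the 1386 TBM cells. In monocyte-like cells, marked by Ly6c2, F13a1, and Fn1, Bcl3 went from 17.9 to 37.9, a log2 ratio of 1.08 (0.78 to 1.39), and was the 1 of 9 members higher, against 1.25% of 9033 genes, while Nfkbie was lower, with a log2 ratio of -1.65 (-2.42 to -0.93), against 2.97% of genes lower. In megakaryocyte-like cells Bcl3 went from 1.04 to 11 CPM, a log2 ratio of 3.40 (2.23 to 4.87), and with Nfkbiz made 2 of 8 members higher, against 1.10% of 9545 genes. The ratio of Nfkbiz there was 1.01, and it was 0.78 as a mean over cells and 0.67 (0.18 to 1.18) in the cluster of 138 CBM and 296 TBM cells, both below 2-fold. In the spleen the same class had 1.33 in CS and 5.69 in TS, with a mean too low to be compared. Neutrophil precursor-like cells, 54 of them in TBM, held 34.7 CPM of Bcl3, next to monocyte-like cells of TBM the highest level of the classes.

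**Figure D3:**
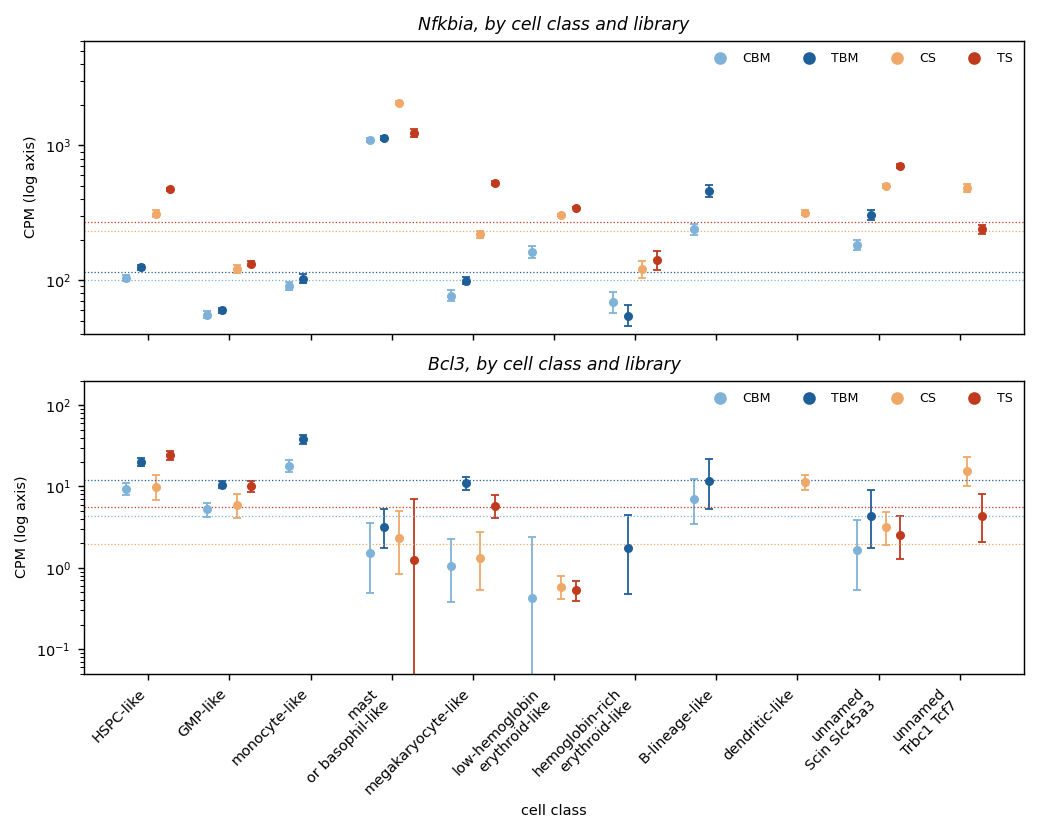
Levels of Nfkbia and Bcl3 by cell class and library, in CPM on log axes, with exact Poisson 95% intervals and, as dotted lines, free RNA of each library. Nfkbia lies higher in spleen than in BM in the HSPC-like, GMP-like, and megakaryocyte-like classes and between 1104 and 2079 in mast or basophil-like cells; Bcl3 lies higher in TBM than in CBM in HSPC-like, GMP-like, monocyte-like, and megakaryocyte-like cells.

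Lymphoid and dendritic cells could be read in part. In B-lineage-like cells, 249 in CBM and 171 in TBM, 0 of 10 members were at least 2-fold higher with tumor, against 5.68% of 9521 genes, and Nfkbia came nearest, from 237.8 to 460.1 CPM, a log2 ratio of 0.95 (0.74 to 1.17). Nfkbie was at 60.6 and 66.8 CPM there, the highest of the named classes in both libraries. Dendritic-like cells, 343 in CS and at most 40 elsewhere, had 56.8 CPM of Nfkbie, 154 of Rel, 48.9 of Relb, and 69 of Nfkb2 in CS, each above the HSPC-like level of that library, and no other library held enough of them to compare. T, NK, or innate lymphoid-like cells, 42 in CS and 22 in TS, were too few to compare.

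2 groups of cells that met no marker rule were followed by their leading genes. In the cells led by Scin and Slc45a3, Nfkbia was at 181.1 CPM in CBM and 305.1 in TBM, against 497.8 in CS and 702.5 in TS. 3 of 9 members were at least 2-fold higher in CS over CBM, against 1.61% of 9416 genes, 2 of 9 in TS over TBM, against 1.92% of 9432 genes, 0 of 9 in TS over CS, against 0.820% of 9390 genes, and 2 of 9, Nfkbid and Rel, in TBM over CBM, against 2.76% of 9437 genes. Control and tumor-bearing cells of this group lay in different clusters, with 383 of the 393 CS cells in one and 471 of the 474 TS cells in the other.

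The cells led by Trbc1 and Tcf7, 81 in CS and 106 in TS, had lower members with tumor. Cd74 and H2-Aa were also among the leading genes of this cluster. 8 of 10 members were at least 2-fold lower in TS over CS, all but Nfkbiz and Nfkb1, against 11.7% of 9727 genes lower, and 0 of 10 were higher, against 2.90%. Other lists, described below, fell as well: 11 of 18 dissociation and immediate-early genes and 8 of 15 target genes were at least 2-fold lower. Their median log2 ratios were -1.14 and -1.08, beside -1.265 for the members. Relb fell from 96 to 7.88 CPM, a log2 ratio of -3.61 (-4.40 to -2.90), and Rel from 156.2 to 53, a ratio of -1.56 (-1.88 to -1.24). The summed level of 9 dendritic markers in these cells was 6859 CPM in CS and 323.7 in TS, and that of 11 T, NK, or innate lymphoid markers was 1819 and 1438. The part of the dendritic messages or of digestion in the difference was not tested, and by the hemoglobin bound free RNA could give up to 17.6% of the UMIs of these cells in TS.

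**Figure D4:**
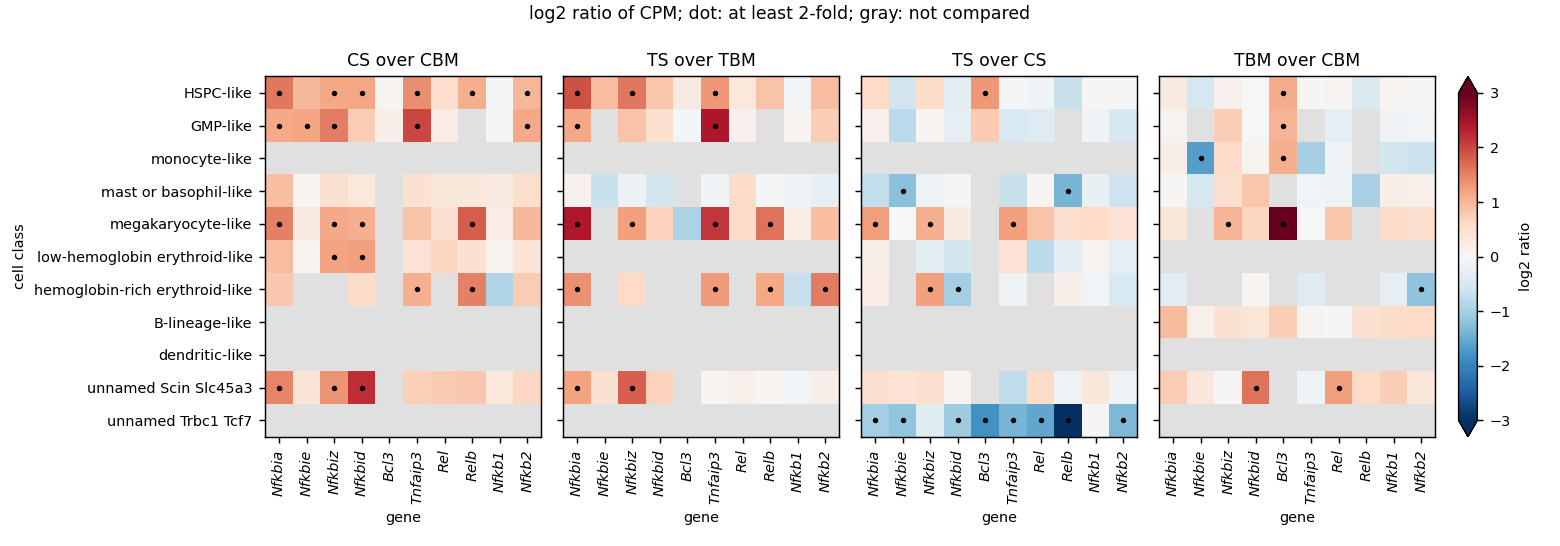
log2 ratios of the 10 genes by cell class in the 4 comparisons, red for higher and blue for lower in the library named first, with dots at values of at least 2-fold and gray where a gene or class was not compared. Dots in CS over CBM and TS over TBM lie mainly in HSPC-like, GMP-like, megakaryocyte-like, and hemoglobin-rich erythroid-like cells, the Bcl3 column holds 4 dots in TBM over CBM, and the Trbc1 and Tcf7 cells hold 8 dots for lower values in TS over CS.

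The rest of the pathway was read from fixed lists. Of 40 genes for other subunits, kinases, adaptors, and ubiquitin-editing regulators, 39 were compared in HSPC-like cells in CS over CBM and 0 were at least 2-fold higher or lower, with a median log2 ratio of 0.12, beside 1.19% of all genes higher and 0.584% lower. In TS over TBM 2 of 38 were higher, beside 0.736% of all genes, Malt1, which encodes a paracaspase of the antigen receptor branch, from 52.1 to 107.5 CPM, and Zc3h12a, which encodes the RNase Regnase-1, from 19.1 to 44.3. Between the spleens, TS over CS, 1 of 38 was lower, beside 1.62% of all genes, namely Tnip3, an A20-binding protein gene, from 46.5 to 11.9. In TBM over CBM 0 of 39 passed 2-fold, beside 0.728% of all genes higher and 0.647% lower.

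Target genes of the pathway, among them cytokines and chemokines, were listed too. Of 21 listed, 10 of 15 compared in HSPC-like cells were at least 2-fold higher in CS over CBM, beside 1.19% of all genes, and 6 of 15 in TS over TBM, beside 0.736%, where 1 was lower, beside 0.828%. Cxcl2, a neutrophil chemokine, was at 11.1 CPM in CBM and 162.4 in CS, a log2 ratio of 3.87 (3.60 to 4.14), and at 22.1 in TBM and 320.7 in TS, a ratio of 3.86 (3.70 to 4.03). Tnf was at 9.15 in CBM and 8.42 in TBM, against 49.1 in CS and 50.6 in TS. Between TS and CS 1 of 15 was higher and 4 were lower, beside 0.736% and 1.62% of all genes, among them Ccl3, from 123.8 to 23.9, and Ccl4, from 301.3 to 90.5. The study that made the libraries singled out Tnf, Cxcl2, Nfkbia, and Nfkbiz on them, so the direction of these genes here is not independent evidence.

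Genes that rise when tissue is digested also differed between the libraries. Of 20 dissociation and immediate-early genes, 18 were compared in HSPC-like cells, of which 5 were at least 2-fold higher in CS over CBM, with a median log2 ratio of 0.74, beside 1.19% of all genes higher. In TS over TBM 3 were higher and 1 lower, with a median of 0.38, beside 0.736% and 0.828% of all genes. Egr1 was at 278.8 CPM in CBM and 240.8 in TBM, against 991.7 in CS and 1063 in TS. In GMP-like cells 11 of 18 were higher in CS over CBM, with a median of 1.29, beside 0.965% of all genes. In mast or basophil-like cells 5 of 18 of these genes were at least 2-fold higher in CS over CBM, beside 2.10% of all genes. Of the 9 members compared there, 0 were at least 2-fold higher and 7 had intervals above 0. Spleens were minced before digestion and BM was spun out of the bone, so organ and preparation cannot be told apart, and the part of digestion in the values of the members was not tested.

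Over 35 points of a class in a library, the genes whose level was most like the summed level of the 10 members, by Spearman correlation among 6097 genes, were Zc3h12a (0.92), Zfp36 (0.90), Ube2d3 (0.89), Neurl3 (0.89), and Gadd45b (0.88). The points share libraries and their free RNA, so the correlations are a description. The sum was not scaled by gene, so that members of high level weighed most. Nfkbia made up 2079 of 3112 CPM in mast or basophil-like cells of CS and 103.5 of 469.2 in HSPC-like cells of CBM. Bcl3 had a correlation of -0.04 with Nfkbia over the same points, so the genes named need not resemble each member. Zc3h12a, Zfp36, and Gadd45b stand in the lists used above, Zfp36, which encodes an RNA-decay factor, among the immediate-early genes. Zc3h12a ranged from 0 to 85.6 CPM over the points and Zfp36 from 14.5 to 1166.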

How the data were processed

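The deposited matrices list UMI counts of every gene in every barcode, empty droplets included, for the 4 libraries, as whole numbers; the authors made them with Cell Ranger 4.0 on mm10, per the labels, from 10x Genomics 3′ v3.1 libraries. The SoupX correction, cell filters, and normalization that the methods describe are not part of the deposited counts and were not rebuilt. Barcodes with at least 1000 genes and at most 10% mitochondrial UMIs were kept, and 101811035 to 176094297 UMIs per library set the precision. Pearson residuals (theta 100) of 18783 genes without 91 listed genes, 50 principal components, 20 neighbors, and Leiden clustering at resolution 1.2 (scanpy 1.11.5, igraph 0.11.9) gave 38 clusters. A cluster was named where at least 2 of its 10 leading genes were markers of a class, with no other class as high, at least 3 markers were 2-fold above the median cluster, and its median UMIs were at least 0.2 of its library's. A cluster with only 2 such genes stayed unnamed if another class had a marker among the leading genes and a larger share of its markers raised. This rule, the split of erythroid-like cells by hemoglobin, and the 2 groups followed by leading genes were settled after the clusters had been seen. No doublets were removed in the values reported.

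UMIs were summed per class and library and scaled to 1000000 (CPM). Poisson, conditional, and Clopper-Pearson 95% intervals were exact (SciPy 1.17.1), and 0 UMIs were set to 3 for ratios, given as bounds. The calculation was tested on simulated data. All 10 members were named, with up to 3 genes of each other list by size of ratio and the 5 genes most like the members. The members and lists were chosen with earlier results of these data known. Alternatives were removal of free RNA, other barcode filters, other classes, another clustering resolution, removal of likely doublets, means over cells, other scaling totals, and no minimum level. Positions are those of GRCm38.p6, and the promoter sequences are from RefSeq.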

Additional observations from a re-analysis of the deposited data

Results flagged for a closer look

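In TS over CS some members were higher in HSPC-like or megakaryocyte-like cells and lower in the cells led by Trbc1 and Tcf7, a difference between classes that was not tested. Nfkbia had a log2 ratio of 1.26 in megakaryocyte-like cells and of -1.02 in the Trbc1 and Tcf7 cells. Tnfaip3 had 1.24 in megakaryocyte-like cells and -1.40 in the Trbc1 and Tcf7 cells. Within the 2 largest megakaryocyte-like clusters the value of Tnfaip3 was 0.97 and 0.27, and over the alternatives it ran from 0.19 to 1.49. That of Nfkbia in megakaryocyte-like cells ran from 0.69 to 1.45 over the alternatives. Bcl3 had 1.30 in HSPC-like cells and -1.82 in the Trbc1 and Tcf7 cells. The summed dendritic markers of the Trbc1 and Tcf7 cells were 6859 CPM in CS and 323.7 in TS. Values of these cells were not compared over the alternatives.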

How the results depend on the processing

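No paired analysis was possible because each group had 1 library. Of 47 values called at least 2-fold in the named classes, 41 to 46 kept their direction and 2-fold size when free RNA was removed at 10% or 20%, with the wider barcode filter, without likely doublets, as means over cells, and with the other scaling total. Dropping the minimum level leaves each ratio unchanged, so that all 47 were kept there by construction. At resolution 0.6, 39 of 45 with a value did, and 30 of 39 did with classes from the markers of each cell. The calls in the Scin and Slc45a3 cells and in the Trbc1 and Tcf7 cells were not among the 47 and were not compared over the alternatives. Removing 20% of UMIs as free RNA turned the direction of 2 in hemoglobin-rich erythroid-like cells in TS over CS, Nfkbiz to -0.031 and Nfkbid to 2.14. With classes from the markers of each cell, 21 pairs outside HSPC-like cells were higher in CS over CBM, of 58 compared, in place of 13. The 4 pairs higher in TS over CS became 1 at resolution 0.6 and 2 as means over cells. In HSPC-like cells, TS over TBM gave 5 members higher as means over cells in place of 3. In the same class calls were also lost: Tnfaip3 in TS over TBM fell to 0.98 with 20% of UMIs removed as free RNA and to 0.95 with classes from the markers of each cell, and in CS over CBM Nfkbiz fell to 0.90 with the latter, Relb to 0.98 with the former, and Nfkb2 to between 0.95 and 0.98 under 4 alternatives. Over the alternatives the log2 ratio of Nfkbia in HSPC-like cells ran from 1.53 to 1.67 in CS over CBM and from 1.87 to 2.04 in TS over TBM, and that of Bcl3 from 1.03 to 1.13 in TBM over CBM and from 1.27 to 1.75 in TS over CS. Values outside HSPC-like cells moved more: that of Nfkbia in GMP-like cells ran from 0.71 to 1.38 in CS over CBM and from 0.90 to 1.21 in TS over TBM, that of Nfkbia in megakaryocyte-like cells from 0.69 to 1.45 in TS over CS, that of Tnfaip3 in GMP-like cells from 1.86 to 5.15 in CS over CBM, and that of Bcl3 in megakaryocyte-like cells from 3.10 to 5.63 in TBM over CBM. The 5.15 came with 20% of UMIs removed as free RNA, where the hemoglobin bound of GMP-like cells was 1.63% in CBM and 0.959% in CS. Intervals cover counting error only, and members under about 10 CPM are the least precise.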
